A study of Mus musculus with 12 samples.

Results

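The genes described here are 10 secretory genes of the goblet cell, the mucus-producing cell of the intestinal epithelium, measured by RNA-Seq in mouse colon. They were chosen by name (Muc2, Fcgbp, Clca1, Zg16, Tff3, Agr2, Retnlb, Ang4, Spink4 and Spdef), and each was found once among the 54532 genes of the count table, so 10 of 54532 genes are described. The study asked whether rhynchophylline (Rhy), an alkaloid of the hooked stems of Uncaria rhynchophylla, protects the colon from colitis caused by DSS (dextran sodium sulfate), a polymer toxic to the epithelium when drunk. Total RNA of colon sections was sequenced in 12 libraries, 3 in each of 4 groups. All mice were male wild-type C57BL/6J, 5 weeks old when obtained.

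The control group drank water without DSS and received no drug. The model group received DSS. The Rhy group received DSS and Rhy, and the DXM group received DSS and dexamethasone (DXM), a synthetic glucocorticoid, at 4 mg/kg. DSS was drunk at 3% in the acute experiment, and dosing lasted 7 days. Rhy was given at 2, 4 or 8 mg/kg in that experiment, and which of these doses the sequenced mice received is not named in the sources used here. No source says that the 3 libraries of a group came from 3 separate mice, so the p-values measure the spread between these samples.

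Goblet cells fill and release the mucus that separates colonic bacteria from the epithelium. The gel-forming mucin Muc2 polymerizes into the sheets of this mucus, and proteins such as Fcgbp, Clca1, Zg16 and Tff3 are packed and released with it. The cells also secrete antimicrobial proteins, and the transcription factors Atoh1 and Spdef direct secretory fate and goblet cell maturation. Loss of goblet cell content and thinning of the mucus are well-known features of DSS colitis and of ulcerative colitis.

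Levels are given as CPM, counts per 1e6 counts of the library after TMM scaling, a scaling that sets most genes equal between libraries. Levels of different genes are compared as FPKM, which also divides by gene length. For the other gene lists, the 3 genes with the highest mean CPM are named, which is not an order per length. Summed over genes, the control libraries held 15662589 to 16601454 counts, those of model 15544386 to 16948352, those of Rhy 14346478 to 16303944 and those of DXM 16072006 to 17749716. All 10 members were among the 16904 genes that passed edgeR's filter on low counts.

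Several libraries stood apart. Hoxb13, a homeobox gene of the posterior body that marks the distal end of the colon, had 155, 72.0 and 0.165 CPM in control 1, 2 and 3, and 226, 205 and 1.49 CPM in model 1, 2 and 3. It had 0, 316 and 230.5 CPM in Rhy 1, 2 and 3, and 221, 195 and 236 CPM in DXM 1, 2 and 3. Control 3, model 3 and Rhy 1 were therefore almost without Hoxb13, whereas all DXM libraries had it. The libraries of model 1 and model 2 were nearly identical: their common dispersion, edgeR's measure of variance beyond counting noise, was 0.00201, while the remaining 65 pairs had 0.06 to 0.338. The 2 differed by more than counting noise, with a mean chi-square of 2.9 per gene over 15996 genes. They were therefore not the same counts entered again, but this cannot tell 2 mice from 2 preparations of 1 RNA or 1 mouse. Which of these holds is not given in the sources used here. Both were kept, so an SD of the model group with n = 3 counts them as 2 libraries. Values with their counts summed into 1 library are given where they bear on a result.

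Epithelium was present in every library. Epcam, a surface protein of all epithelial cells, had 1144 to 2207 CPM, a range of 1.93-fold. The members were present in every library apart from Ang4, which had 0 counts in DXM 3.

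Muc2 (ENSMUSG00000025515, chromosome 7 of GRCm38 from 141690340 to 141754693, plus strand) encodes the mucin that forms the gel. Its level was 1591, 351 and 6710.4 CPM in control 1, 2 and 3, 1012, 1037 and 4528 CPM in model 1, 2 and 3, 717, 959.8 and 1429 CPM in Rhy 1, 2 and 3, and 903, 2537 and 1362 CPM in DXM 1, 2 and 3. Control 3 and model 3 were far above all other libraries, control 2 was the lowest, and all groups overlapped. Fewer goblet cells and less RNA per goblet cell cannot be told apart in such bulk samples, here or for any other member.

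Fcgbp (ENSMUSG00000047730, chromosome 7 from 28071236 to 28120862, plus strand) encodes a large mucus protein that is stored and secreted with Muc2. It had 2493, 249 and 985 CPM in control 1, 2 and 3, 713, 729 and 842 CPM in model 1, 2 and 3, 95.5, 753 and 1538 CPM in Rhy 1, 2 and 3, and 1299, 1446 and 1548 CPM in DXM 1, 2 and 3. The DXM libraries all lay above the model libraries, while control and Rhy each ranged from the lowest levels to the highest. Clca1 (ENSMUSG00000028255, chromosome 3 from 145003817 to 145032776, minus strand), a secreted metalloprotease that processes mucus, had 1530.0, 149 and 624 CPM in control 1, 2 and 3, 502, 497 and 476 CPM in model 1, 2 and 3, 60.7, 737 and 1564 CPM in Rhy 1, 2 and 3, and 1339.7, 1759 and 2344 CPM in DXM 1, 2 and 3. As with Fcgbp, each DXM library was above each model library, and Rhy 1 was the lowest of all 12.

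Zg16 (ENSMUSG00000049350, chromosome 7 from 127050156 to 127087328, minus strand) encodes a small lectin that binds Gram-positive bacteria and keeps them off the epithelium. It had 4534, 504 and 1311 CPM in control 1, 2 and 3, 1863, 2018 and 2239 CPM in model 1, 2 and 3, 179, 2305 and 3852 CPM in Rhy 1, 2 and 3, and 2342, 4222 and 5319.9 CPM in DXM 1, 2 and 3. DXM was above model without overlap, although DXM 1 exceeded model 3 only slightly. Tff3 (ENSMUSG00000024029, chromosome 17 from 31125306 to 31129646, minus strand), a trefoil peptide of epithelial repair, had 938, 126 and 302 CPM in control 1, 2 and 3, 485, 495 and 469.9 CPM in model 1, 2 and 3, 80.0, 663 and 1004 CPM in Rhy 1, 2 and 3, and 1332, 1013 and 1347 CPM in DXM 1, 2 and 3. Every DXM library exceeded every library of the other groups for Tff3, though Rhy 3, at 1004 CPM, came close to DXM 2.

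Agr2 (ENSMUSG00000020581, chromosome 12 from 35992907 to 36004087, plus strand) encodes a protein disulfide isomerase of the endoplasmic reticulum that is needed to make Muc2. It had 206, 205 and 998 CPM in control 1, 2 and 3, 392, 401 and 885 CPM in model 1, 2 and 3, 239, 809 and 1152 CPM in Rhy 1, 2 and 3, and 354, 993 and 1139.6 CPM in DXM 1, 2 and 3. Levels of 205 to 401 CPM and of 809 to 1152 CPM both occurred in each group, and all groups overlapped.

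Retnlb (ENSMUSG00000022650, chromosome 16 from 48816856 to 48818892, plus strand), also called Relm-beta, is a secreted antimicrobial protein that type 2 cytokines induce. It had 1421, 203 and 2679 CPM in control 1, 2 and 3, 365, 365 and 2349.9 CPM in model 1, 2 and 3, 343, 338 and 394 CPM in Rhy 1, 2 and 3, and 95.3, 1372 and 806 CPM in DXM 1, 2 and 3. Control 3 and model 3 had the highest levels, as for Muc2, and the Rhy libraries were close to each other and overlapped each other group. Ang4 (ENSMUSG00000060615, chromosome 14 from 51763878 to 51773590, minus strand), a ribonuclease with antibacterial activity, had between 0 counts in DXM 3 and 156 counts in DXM 2, or 0 to 7.52 CPM. It was the only member near the limit of detection: 0 counts in DXM 3 stood beside 18 and 156 counts in the other DXM libraries.

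Spink4 (ENSMUSG00000028415, chromosome 4 from 40920052 to 40931395, plus strand) encodes a small secreted protein of the Kazal type, a family of serine protease inhibitors. It had 391, 148 and 191 CPM in control 1, 2 and 3, 139, 140.3 and 134 CPM in model 1, 2 and 3, 36.6, 494 and 766 CPM in Rhy 1, 2 and 3, and 252, 631 and 535 CPM in DXM 1, 2 and 3. The model libraries lay below every control and every DXM library, though model 2 was only just below control 2. In the Rhy group, Rhy 2 and Rhy 3 were above all model libraries and Rhy 1 was below them.

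Spdef (ENSMUSG00000024215, chromosome 17 from 27714352 to 27728955, minus strand) encodes the Ets-family transcription factor of goblet and Paneth cell maturation. It had 45.6, 13.1 and 199.9 CPM in control 1, 2 and 3, 22.8, 22.8 and 107 CPM in model 1, 2 and 3, 42.2, 47.6 and 51.7 CPM in Rhy 1, 2 and 3, and 22.6, 59.4 and 55.0 CPM in DXM 1, 2 and 3. Control 3 and model 3 were again the highest 2 libraries, and all groups overlapped.

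**Figure D1:**
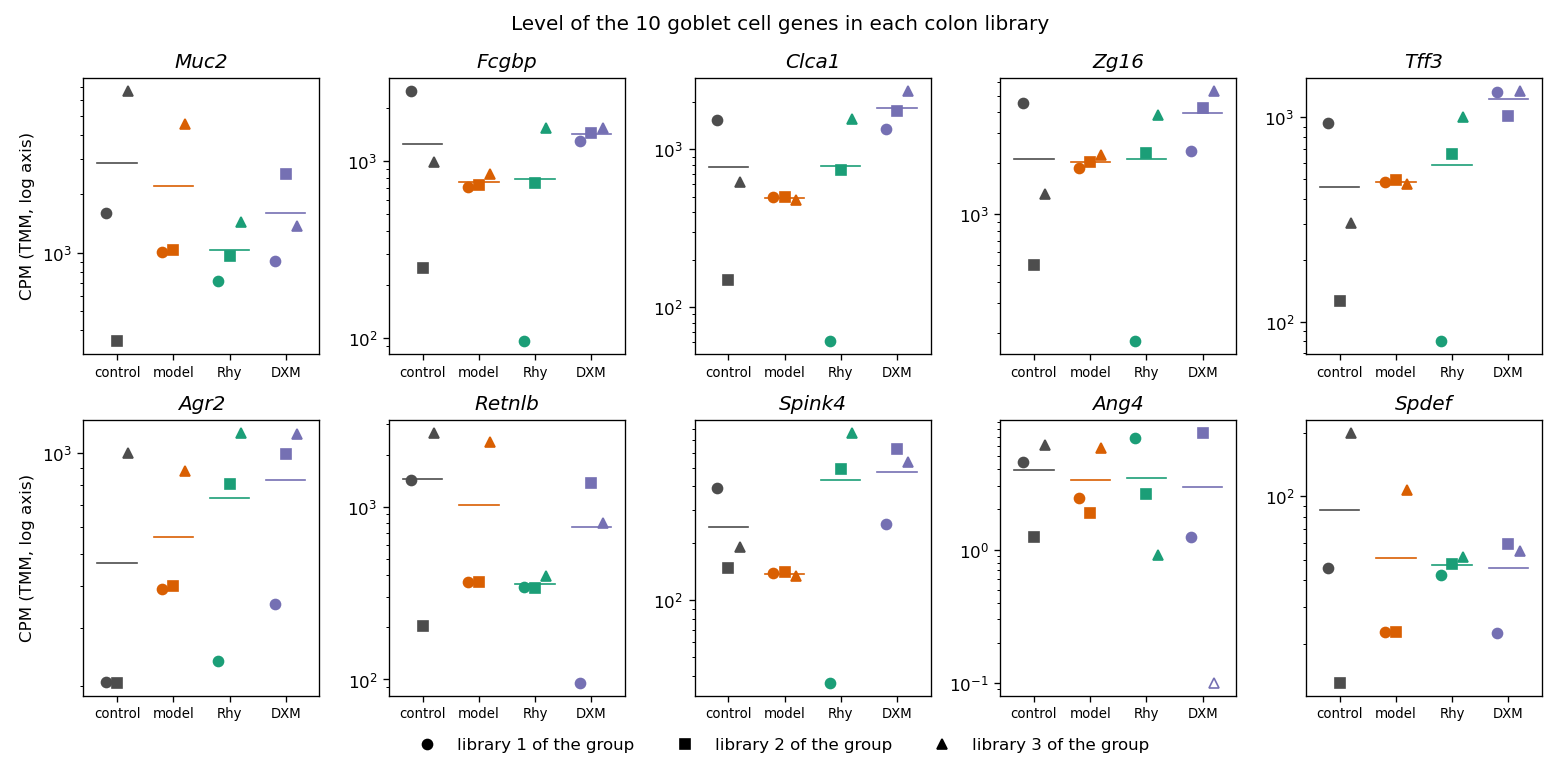
CPM (TMM scaling, log axis) of the 10 members in each library, by group; circles, squares and triangles are libraries 1, 2 and 3 of a group, lines are group means, and the open symbol is Ang4 in DXM 3, which had 0 counts and is drawn at 0.1. The DXM libraries sit above the model libraries for Fcgbp, Clca1, Zg16, Tff3 and Spink4, while Muc2, Retnlb and Spdef peak in control 3 and model 3.

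Per length, the members differed widely in abundance. Mean FPKM over the 12 libraries was 2003 for Zg16, 1374 for Tff3 and 1272 for Retnlb, then 665 for Spink4, 495 for Agr2, 268 for Muc2, 252 for Clca1 and 99.5 for Fcgbp. The regulator Spdef had 24.7 FPKM and Ang4 had 4.76 FPKM. In the control group the FPKM was 1693 ± 1699 (SD, n = 3) for Zg16, 2077 ± 1797 for Retnlb, 929 ± 867 for Tff3 and 408 ± 478 for Muc2, so the order of the first members did not exceed their spread. In the model group, Zg16 at 1577 ± 155 FPKM, Tff3 at 952 ± 20.3 FPKM and Spink4 at 281 ± 5.06 FPKM were apart by more than their spread, which is small in part because model 1 and model 2 were nearly identical, while Retnlb at 1439.6 ± 1613 FPKM overlapped them (SD, n = 3).

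The question of the comparison of model against control is what DSS does to the colon. By edgeR's quasi-likelihood test with Benjamini-Hochberg adjustment, 0 of the 10 members had an adjusted p under 0.05, where 0% of all 16904 genes did. At an unadjusted p under 0.05 there were 0 members higher and 0 lower, against 5.11% and 4.51% of all genes, and DESeq2 (0.154% of its 29929 genes adjusted, 6.62% unadjusted) and limma on log2(FPKM + 1) (0% and 9.81% of all genes) also gave 0 of 10 at either threshold. Every model library was above every control library for 0 members (10.4% of all genes) and below for 1 member, Spink4 (6.61% of all genes), and the groups overlapped for the other 9 members.

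Spink4 had 138 ± 3.27 CPM in the model group and 243 ± 129.9 CPM in the control group (SD, n = 3). Its log2 fold change was -0.82 with a standard error of 0.75, and the 95% interval ran from -2.45 to 0.81 (edgeR's quasi-likelihood test, adjusted p = 0.748; exact permutation p = 0.1, the lowest possible for 3 against 3). Without control 1 the log2 fold change of Spink4 was -0.30, and without control 2 it was -1.07. For Muc2, the log2 fold change was -0.40 with a standard error of 0.87, and the 95% interval ran from -2.29 to 1.5 (edgeR, adjusted p = 0.909). Leaving out control 3 turned the direction of Muc2, to a log2 fold change of 1.164, and without model 3 it was -1.55. Fitted to the 9 libraries with Hoxb13, a choice made after the data were seen, it was 0.04.

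The median log2 fold change of the 10 members in model against control was -0.44, with 8 below 0, whereas the median of all genes was 0.01 and 50.7% of them were above 0. The median of the members was -0.96 without control 2 and 0.02 without control 3. Summing model 1 and model 2 gave -0.07. The lowest of the other log2 fold changes were those of Spdef (-0.76, standard error 0.83), Fcgbp (-0.71, standard error 0.82) and Clca1 (-0.64, standard error 0.88). Those above 0 were Agr2 (0.25, standard error 0.71) and Tff3 (0.09, standard error 0.75). Each of these directions turned when 1 library was left out. Spdef was 0.78 without control 3, and Fcgbp was 0.30 and Clca1 0.35 without control 1. Agr2 was -0.30 without model 3, and Tff3 was -0.36 without control 2.

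The model group itself was uneven between genes. Spink4 (138 ± 3.27 CPM), Tff3 (483 ± 12.7 CPM) and Clca1 (491 ± 13.4 CPM) were nearly equal in its 3 libraries (SD, n = 3), and model 3 did not stand apart from the near-identical model 1 and model 2. Muc2 (2192 ± 2023 CPM), Retnlb (1027 ± 1146 CPM) and Spdef (50.8 ± 48.6 CPM) were spread as widely as their means, because of model 3 (SD, n = 3). In the control group the SD exceeded the mean for Muc2 (2884 ± 3371 CPM), Zg16 (2116 ± 2133 CPM) and Spdef (86.2 ± 99.8 CPM), because of control 3 for Muc2 and Spdef and of control 1 for Zg16 (SD, n = 3).

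The comparison of Rhy against model asks whether Rhy changes expression in the injured colon. With edgeR's quasi-likelihood test and Benjamini-Hochberg adjustment, 0 of 10 members had an adjusted p under 0.05 (0% of all genes). At an unadjusted p under 0.05, 0 members were higher (1.74% of all genes) and 0 were lower (1.98%). DESeq2 gave 0 of 10 at an adjusted and 1 of 10 at an unadjusted p under 0.05, where 0.0167% and 3.06% of its 29929 genes passed. With limma on log2(FPKM + 1) 0 of 10 passed either, against 0% and 3.67% of all genes. No member had its Rhy libraries all above the model libraries (5.51% of all genes) or all below them (6.02%).

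Spink4 came nearest, with 432 ± 369 CPM in the Rhy group and 138 ± 3.27 CPM in the model group (SD, n = 3). Its log2 fold change was 1.65 with a standard error of 0.76, and the 95% interval ran from -0.01 to 3.31 (edgeR, adjusted p = 1.00). Rhy 1, at 36.6 CPM, was below the model group, and without it the log2 fold change was 2.19 (edgeR, unadjusted p = 0.00042, adjusted p = 0.501), whereas without Rhy 3 it was 0.94. Of 18 alternatives, 5 gave an unadjusted p under 0.05, which the fit to all libraries did not, and 0 gave an adjusted p under 0.05 (edgeR and, in 1 of them, DESeq2). In Rhy 1, Hoxb13 was at 0 counts and the summed level of the leukocyte list, 97.9 CPM, was the lowest of the 12 libraries; the part of either in these values was not tested.

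Of the other members, Retnlb had a log2 fold change of -1.52 (standard error 1.01) and Muc2 of -1.08 (standard error 0.88) in Rhy against model. Without model 3, which leaves only the near-identical model 1 and model 2, they were 0.00 and 0.05. Clca1 (0.68, standard error 0.88), Agr2 (0.39, standard error 0.71) and Tff3 (0.27, standard error 0.75) were above 0. Without Rhy 3 they were below it, at -0.30, -0.0932 and -0.38. The values for Fcgbp, Zg16, Ang4 and Spdef were 0.06, 0.05, 0.03 and -0.11. The median of the 10 members was 0.06, with 7 above 0, against -0.01 for all genes, of which 48.3% were above 0. It was 0.59 without Rhy 1, -0.34 without Rhy 3 and 0.48 without model 3. With limma on log2(FPKM + 1) it was -0.27, with 3 above 0, and scaled to a pan-epithelial list it was -0.25, with 3 above 0. Over the 9 libraries with Hoxb13 it was 0.75, with 9 above 0.

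The comparison of DXM against model sets a glucocorticoid given with DSS against DSS alone. Here 5 of 10 members, Fcgbp, Clca1, Zg16, Tff3 and Spink4, had every DXM library above every model library, where 10.4% of all genes did. For 0 members were they all below, where 12.2% of all genes were. Those 5 members varied together, with Pearson correlations of 0.82 to 0.97 over the 12 libraries, so they are not 5 separate observations. Nor was the pattern particular to them: genes of smooth muscle (Acta2 and Myh11) and of leukocytes (Lyz2 and Adgre1) also had it. In edgeR's quasi-likelihood test with Benjamini-Hochberg adjustment, 0 of 10 members (0% of all genes) had an adjusted p under 0.05. At an unadjusted p under 0.05, 1 member was higher, Spink4, and 0 were lower, against 4.89% and 2.8% of all genes. DESeq2 likewise gave 0 members at an adjusted and 1 at an unadjusted p under 0.05, where 0.17% and 5.54% of the 29929 genes it tested passed. By limma on log2(FPKM + 1) there were 0 members at both, against 0% and 8.02% of all genes.

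Spink4 had 473 ± 197 CPM in the DXM group and 138 ± 3.27 CPM in the model group (SD, n = 3), a 3.43-fold higher fitted level. The log2 fold change was 1.78 with a standard error of 0.76, and the 95% interval ran from 0.11 to 3.44 (edgeR, unadjusted p = 0.0385, adjusted p = 0.638; exact permutation p = 0.1). It was higher in 3 of 3 DXM libraries. Without DXM 2 the log2 fold change was 1.51, and without DXM 1 it was 2.08. The unadjusted call was lost with the near-identical model 1 and model 2 summed into 1 library, where the log2 fold change was 1.79 and the unadjusted p 0.0802 (edgeR's quasi-likelihood test). It was also lost with Hoxb13 as a term (log2 fold change 1.28, unadjusted p = 0.086 by edgeR). With the replicate number as a block it was lost too (1.69, unadjusted p = 0.0673 by edgeR). Leaving out any 1 of model 1, model 2, model 3, DXM 2 and DXM 3 likewise ended it (1.51 to 1.79, unadjusted p = 0.0743 to 0.1 by edgeR).

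Clca1 had 1814 ± 505 CPM in the DXM group and 491 ± 13.4 CPM in the model group (SD, n = 3), with a log2 fold change of 1.88, a standard error of 0.91 and a 95% interval from -0.10 to 3.87 (edgeR, adjusted p = 0.658). Tff3 had 1231 ± 188 CPM against 483 ± 12.7 CPM (SD, n = 3), with a log2 fold change of 1.35, a standard error of 0.77 and a 95% interval from -0.33 to 3.02 (edgeR, adjusted p = 0.681). For both genes the groups were set apart by more than their SDs, while the standard error of the fit, which draws on the spread in all 12 libraries, was wider because control and Rhy varied more. Fitted to the 6 libraries of the 2 groups alone, with the near-identical model 1 and model 2 counted as 2 libraries, 5 of 10 members were higher at an unadjusted p under 0.05, where 8.36% of the 16287 genes tested were higher and 7.07% lower, while an adjusted p under 0.05 was reached by 0 members and 0.0123% of all genes (edgeR's quasi-likelihood test; lowest for a member 0.157). In the fit to all groups, where 1 member was higher at an unadjusted p under 0.05, summing model 1 and model 2 left 0, against 2.75% of the 17346 genes tested.

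Zg16 (log2 fold change 0.96, standard error 0.88) and Fcgbp (0.91, standard error 0.82) were also above 0 in DXM against model, and Agr2 had 0.57 (standard error 0.72) with overlapping libraries. Without DXM 3 the value of Agr2 was 0.27, and without model 3 it was 1.08. With Hoxb13 as a term, Zg16 had 0.35, Fcgbp 0.45 and Tff3 0.85. Muc2 (-0.45, standard error 0.87), Retnlb (-0.44, standard error 0.99), Spdef (-0.15, standard error 0.82) and Ang4 (-0.18, standard error 1.17) were below 0. Without model 3, which leaves the near-identical model 1 and model 2 as in effect 1 sample, these 4 values were 0.66, 1.07, 1.02 and 0.47, and all 10 members were above 0. Without DXM 2 the values moved the other way for Muc2 (-0.96), Retnlb (-1.19) and Ang4 (-2.49). The median of the 10 members was 0.74, with 6 above 0, against -0.01 for all genes, of which 48.5% were above 0. Without model 3 it was 1.06, and without DXM 3 it was 0.54.

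Over the 9 libraries with Hoxb13, a choice made after the data were seen, the model arm was the near-identical model 1 and model 2 alone, so in effect 1 sample, beside 2 control and 2 Rhy libraries. There DXM was above model without overlap for 5 members, where 15.7% of all genes were. Rhy was above model without overlap for 7 members, where 25.5% of all genes were. In model against control, 1 member was above and 1 below without overlap, against 30.3% and 22% of all genes. Of the members, 0 had an adjusted p under 0.05 in any of the 3 comparisons on these libraries, as did 0%, 0% and 0.0116% of the 17253 genes tested in model against control, Rhy against model and DXM against model (edgeR's quasi-likelihood test). The 3 comparisons share the model libraries, so their values are not independent of one another.

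**Figure D2:**
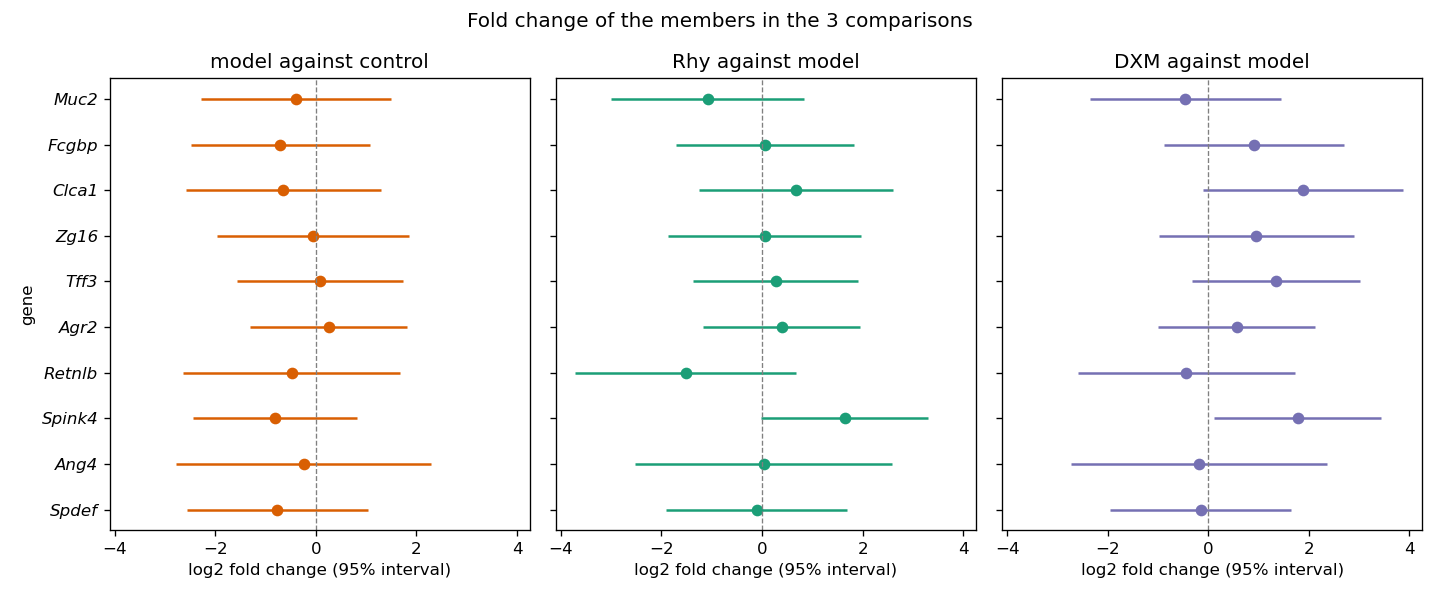
Log2 fold change of each member (points) with its 95% interval (lines, from edgeR's standard error) in model against control, Rhy against model and DXM against model; the dashed line is 0. Only the interval of Spink4 in DXM against model, from 0.11 to 3.44, leaves out 0, in this fit with model 1 and model 2 as 2 libraries (unadjusted p = 0.0802 by edgeR with them summed).

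For any difference among the 4 groups, edgeR's quasi-likelihood test gave 0 of 10 members an adjusted p under 0.05 (0% of all genes) and 0 an unadjusted p under 0.05 (11.5% of all genes). The smallest adjusted p of a member was that of Spink4, 0.53. DESeq2 and limma also gave 0 of 10 members at an adjusted p under 0.05, where DESeq2 called 399 of 29929 genes (1.33%) and limma 0%.

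The members varied between libraries of one group more than most genes did. The SD of log2 CPM within groups was 1.05 for Agr2, 1.22 for Tff3, 1.24 for Spdef and 1.29 for Spink4. It was 1.31 for Muc2, 1.34 for Fcgbp, 1.46 for Zg16, 1.5 for Clca1, 1.61 for Retnlb and 1.80 for Ang4. The median over all 16904 genes was 0.42, and all 10 members were among the most variable genes, from percentile 92.2 for Agr2 to 98.8 for Ang4. Among the 4079 genes with a mean log2 CPM at least that of Spdef, where the median was 0.29, the 9 members other than Ang4 had percentiles of 97.9 to 99.3. Epcam, with 0.16, was at percentile 4.76 of all 16904 genes.

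**Figure D3:**
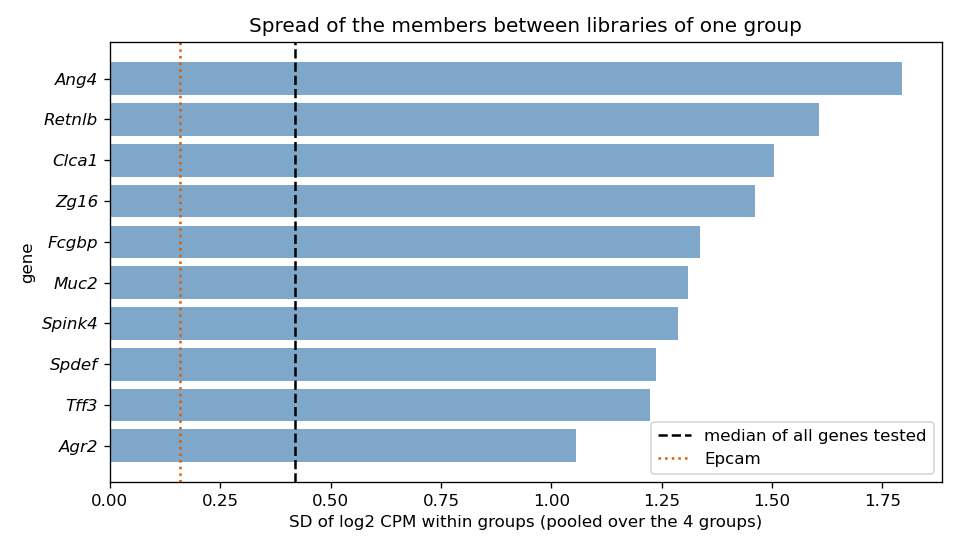
SD of log2 CPM within groups, pooled over the 4 groups (bars), for the 10 members; the dashed line is the median of all genes tested (0.42) and the dotted line is Epcam (0.16). Every member exceeds the median of all genes, from 1.05 for Agr2 to 1.80 for Ang4.

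From the lowest to the highest of the 12 libraries, the level differed 38.6-fold for Clca1, 29.8-fold for Zg16, 28.1-fold for Retnlb and 26.1-fold for Fcgbp. It differed 20.9-fold for Spink4, 19.1-fold for Muc2, 16.8-fold for Tff3, 15.3-fold for Spdef and 5.63-fold for Agr2. Rhy 1 was lowest for Clca1, Zg16, Fcgbp, Tff3 and Spink4, and control 2 was lowest for Muc2, Spdef and Agr2. Control 2 belonged to the group without DSS and Rhy 1 to a group with it.

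Together, the members held 1.12%, 0.170% and 1.54% of all counts in control 1, 2 and 3, and 0.588%, 0.605% and 1.22% in model 1, 2 and 3. They held 0.146%, 0.687% and 1.27% in Rhy 1, 2 and 3, and 0.721%, 1.64% and 1.68% in DXM 1, 2 and 3. The groups overlapped in this share, and within control and within Rhy it spanned nearly the whole range. The share of counts from mitochondrial genes, a sign of RNA quality and tissue makeup, was 21.0%, 17.0% and 6.33% in control 1, 2 and 3, 13.4%, 13.98% and 11.1% in model 1, 2 and 3, 23.8%, 15.2% and 8.9% in Rhy 1, 2 and 3, and 25.7%, 7.88% and 7.48% in DXM 1, 2 and 3. It was lower where the members' share was higher, with a Pearson correlation of -0.64 with the log2 share over the 12 libraries (Spearman -0.75), and its part in the levels of the members was not tested. The makeup of the members' share differed too: Muc2 made up 47.9% of the members' counts in control 3, 39.9% in Rhy 1 and 37.6% in model 3, but 9.42% to 18.4% in the other 9 libraries. Zg16 made up 9.36%, 9.92% and 18.6% in those 3 libraries and 25.8% to 36.8% in the others.

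**Figure D4:**
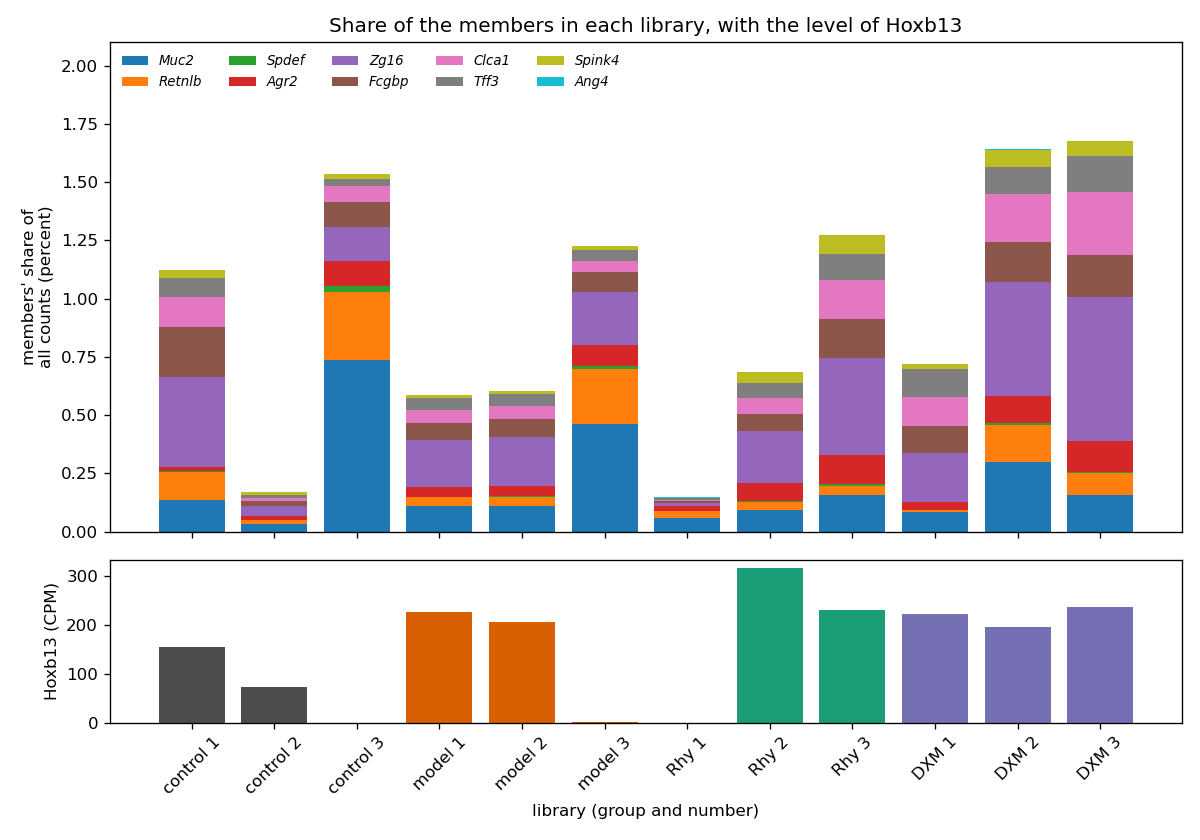
Share of all counts of a library held by each member (stacked bars, percent) in the 12 libraries, over the level of Hoxb13 in the same libraries (CPM). Muc2 makes up 37.6% to 47.9% of the members' counts in control 3, model 3 and Rhy 1, the 3 libraries with Hoxb13 at 0 to 1.49 CPM. In Rhy 1 the members together hold only 0.146% of all counts, and Muc2 is at 717 CPM.

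The 3 libraries in which Muc2 held the largest part were those with almost no Hoxb13. A large part is not a high level: in Rhy 1, Muc2 was low, at 717 CPM, while Zg16, Clca1, Fcgbp, Tff3 and Spink4 were at their lowest. Other position genes were measured beside Hoxb13. Of the 9 colon position genes in the table, 8 were tested, and Cyp2c55 had 2217, 2298 and 2830 CPM in control 3, model 3 and Rhy 1. It had 4537 CPM in control 2, which held Hoxb13 at 72.0 CPM, and 36.3 to 953 CPM in the other 8 libraries. Hoxd13 had 0, 0.0596 and 0.342 CPM in control 3, model 3 and Rhy 1, against 5.54 to 169 CPM in the others, and Cdx2, a factor of intestinal identity, had 433, 391 and 535 CPM against 56.5 to 271 CPM. With log2 CPM of Hoxb13 as a term in the fit, 0 members had an adjusted p under 0.05 in any comparison, where 0% of all genes did (edgeR's quasi-likelihood test). The medians of the members were then -0.21, -0.19 and 0.53 in model against control, Rhy against model and DXM against model. Whether the sections were taken at different places along the colon is not given in the sources used here, and its part in the levels of the members was not tested.

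Over the 12 libraries, the members fell into 2 sets of like pattern, named after their values were seen. Among Tff3, Clca1, Fcgbp, Zg16 and Spink4, the Pearson correlation of log2 CPM was 0.82 to 0.97 over 10 pairs (Spearman 0.76 to 0.92). Among Muc2, Retnlb and Spdef it was 0.83 to 0.91 over 3 pairs (Spearman 0.84 to 0.94). Between the sets it was 0.09 to 0.48 over 15 pairs (Spearman 0.01 to 0.59). Agr2 lay between them, at 0.46 to 0.57 with the first set and 0.46 to 0.67 with the second, and Ang4 was at -0.40 to -0.24 with the first set and 0.31 to 0.36 with the second. These values describe 12 libraries that share groups and, in model 1 and model 2, nearly the same counts.

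The distance between the sets depended on which libraries were kept. Without control 2 and Rhy 1, which were low for most members, the correlation between the sets was -0.52 to 0.17 over 10 libraries, and within them it was 0.64 to 0.89 in the first set, lower than with all libraries, and 0.83 to 0.92 in the second. Without control 3, model 3 and Rhy 1, it was 0.31 to 0.92 between the sets over 9 libraries, with a median of 0.78, while it was 0.67 to 0.97 within the first set and 0.70 to 0.85 within the second. The 3 libraries left out here are those low in Hoxb13.

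**Figure D5:**
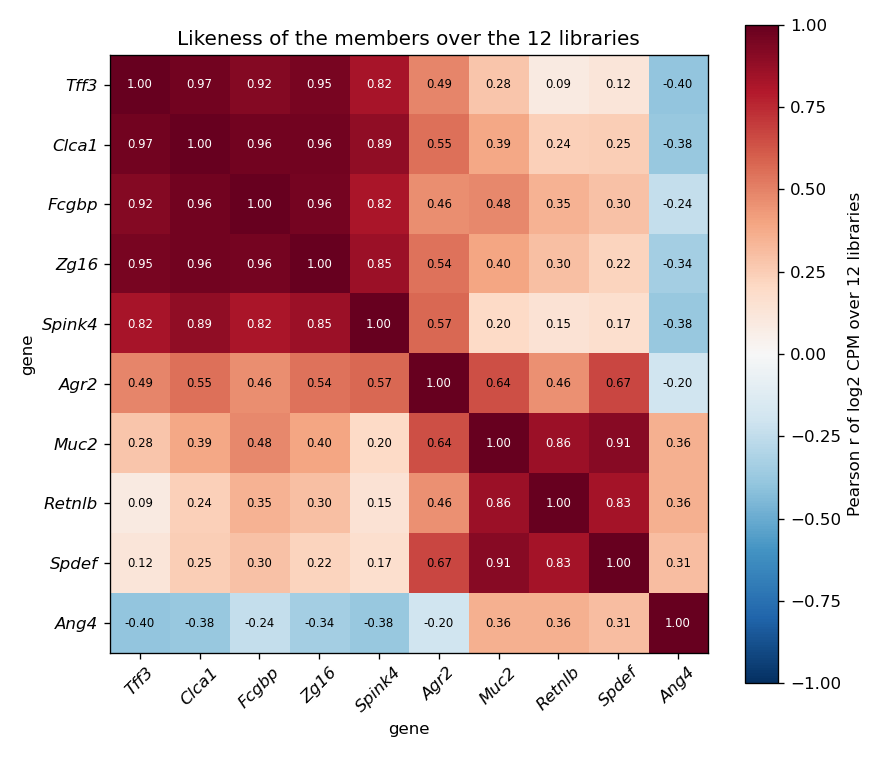
Pearson correlation of log2 CPM between each pair of members over the 12 libraries, with its value in each cell. A block of Tff3, Clca1, Fcgbp, Zg16 and Spink4 (0.82 to 0.97) stands beside a block of Muc2, Retnlb and Spdef (0.83 to 0.91), with 0.09 to 0.48 between them.

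For 5 of the 10 members, RefSeq sequences upstream of the start of transcription were at hand (GRCm38.p6). The 250 bases before the start in RefSeq, which for Agr2 and Spdef lies slightly inside the locus given above, are shown for 4 of them. Muc2 and Spdef are of the second set, and Agr2 lay between the sets. Fcgbp was the only member of the first set with a sequence at hand, so windows within that set cannot be compared. The window of Ang4 is not shown. Capitals mark matches, on either strand, to CAGCTG (the E-box form that Atoh1 prefers), GGAT (the core that Spdef prefers) and TTTAT (a core that Cdx2 binds), and no matches overlapped. Muc2 is shown from chr7:141690090-141690339 (plus strand), Spdef from chr17:27728952-27729201 (minus strand), Fcgbp from chr7:28070986-28071235 (plus strand) and Agr2 from chr12:35992675-35992924 (plus strand), each 5′ to 3′ along its gene.
Muc2: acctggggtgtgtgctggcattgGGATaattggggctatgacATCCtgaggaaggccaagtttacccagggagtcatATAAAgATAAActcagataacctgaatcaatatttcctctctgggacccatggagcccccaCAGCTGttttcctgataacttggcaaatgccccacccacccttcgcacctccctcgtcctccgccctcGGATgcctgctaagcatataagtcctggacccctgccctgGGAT
Spdef: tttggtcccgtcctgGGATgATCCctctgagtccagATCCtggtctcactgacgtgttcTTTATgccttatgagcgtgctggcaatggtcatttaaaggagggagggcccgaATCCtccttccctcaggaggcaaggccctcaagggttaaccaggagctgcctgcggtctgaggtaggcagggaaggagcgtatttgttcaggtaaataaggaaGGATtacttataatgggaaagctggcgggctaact
Fcgbp: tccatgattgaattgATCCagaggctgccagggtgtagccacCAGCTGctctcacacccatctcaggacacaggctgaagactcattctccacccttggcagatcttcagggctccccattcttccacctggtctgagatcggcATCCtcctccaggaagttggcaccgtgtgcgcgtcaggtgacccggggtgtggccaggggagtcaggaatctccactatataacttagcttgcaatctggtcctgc
Agr2: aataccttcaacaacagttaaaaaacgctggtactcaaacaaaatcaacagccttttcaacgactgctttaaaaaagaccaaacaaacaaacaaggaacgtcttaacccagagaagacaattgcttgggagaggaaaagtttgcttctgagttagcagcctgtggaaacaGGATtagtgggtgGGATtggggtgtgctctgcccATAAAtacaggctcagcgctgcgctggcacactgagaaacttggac

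The window of Muc2 held 1 match to CAGCTG, 4 to GGAT and 2 to TTTAT, and that of Spdef held 0, 5 and 1. Fcgbp had 1, 2 and 0 matches, Agr2 had 0, 2 and 1, and Ang4, not shown, had 0, 1 and 0. Over 32851 windows of the same length upstream of all genes, 13% held CAGCTG, 74.1% held GGAT and 37.3% held TTTAT, so that GGAT is a pattern most windows hold. A match is a description of letters, and binding was not measured.

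The genes most like the members were found among all other genes tested, by the Pearson correlation over the 12 libraries with the mean standardized log2 CPM of the members. They were Hs3st3b1 (0.94), Mcf2l (0.93), A430078I02Rik (0.92), Rep15 (0.92), Rab27a (0.91), Hepacam2 (0.91), Gm44985 (0.90), Ap3s1-ps2 (0.90), Arhgef38 (0.90) and St6gal1 (0.90). Rab27a encodes a small GTPase of secretory granule release. Rep15 had 10.5 CPM in Rhy 1 and 23.2 CPM in control 2, the lowest libraries of most members, and 140.3 CPM in DXM 2. A430078I02Rik and Ap3s1-ps2 had means of only 0.424 and 0.455 CPM.

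For Muc2 alone the most alike genes were Tpsg1 (0.95), Rap1gap (0.94) and Atoh1 (0.93), over the same 12 libraries. Atoh1, the factor that commits epithelial progenitors to secretory fate, had 19.0, 11.2 and 74.5 CPM in control 1, 2 and 3, 17.0, 15.6 and 43.1 CPM in model 1, 2 and 3, 19.8, 20.8 and 30.2 CPM in Rhy 1, 2 and 3, and 18.7, 44.9 and 24.9 CPM in DXM 1, 2 and 3. Its highest libraries were control 3, DXM 2 and model 3, the same 3 that were highest for Muc2 and Spdef.

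A list of 30 other genes of goblet cells and mucin assembly held 26 that were tested. In edgeR's quasi-likelihood test 0 of them had an adjusted p under 0.05 in any comparison, where 0% of all genes did. At an unadjusted p under 0.05, 5.11% of all genes were higher and 4.51% lower in model against control. The shares were 1.74% and 1.98% in Rhy against model and 4.89% and 2.8% in DXM against model, and they serve for every list below. Of the 26 genes, 0 passed in model against control, 1 was higher in Rhy against model, and 1 was higher and 1 lower in DXM against model. Their median log2 fold changes were -0.27, 0.01 and 0.14, in the same order, beside -0.44, 0.06 and 0.74 for the members. Those with the highest mean CPM were Klf4, a factor of terminal differentiation (mean 158 FPKM), Tgm3, a transglutaminase that crosslinks mucus (73.0 FPKM), and Gcnt3, a glycosyltransferase of mucin core branches (50.6 FPKM). Agr3, a close relative of Agr2, was low, with 3 to 7 counts in control and model libraries, 1, 21 and 37 counts in Rhy 1, 2 and 3 and 8, 11 and 66 in DXM 1, 2 and 3. Nlrp6, an inflammasome sensor linked to mucus release, had 215, 210.5 and 312 CPM in model 1, 2 and 3 and 151, 154 and 67.7 CPM in DXM 1, 2 and 3. Its log2 difference was -0.99 (SE 0.40, adjusted p = 0.637 by edgeR). The DXM libraries were all above the model libraries for Agr3, Bcas1, Capn9, Rep15, Hepacam2 and Tgm3 (10.4% of all genes). They were all below for Klf4, Foxa1 and Nlrp6 (12.2% of all genes).

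Tgm3, singled out after its values were seen, departed from Muc2 in control 3 and model 3. It had 34.9, 10.2 and 24.5 CPM in control 3, model 3 and Rhy 1, and 159.5 to 975.4 CPM in the 9 libraries with Hoxb13. Muc2 had its highest levels in control 3 and model 3, but in Rhy 1 it was low too, at 717 CPM. In DXM against model, every DXM library was above every model library for Tgm3, as for 5 of the members.

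The load of mucin folding falls on the endoplasmic reticulum, and a list of its folding enzymes and stress sensors held 25 genes, all tested. In edgeR's quasi-likelihood test 0 had an adjusted p under 0.05, and the medians were 0.25, -0.01 and -0.01 in model against control, Rhy against model and DXM against model. At an unadjusted p under 0.05, Edem1, which draws misfolded glycoproteins to degradation, was lower in model against control (log2 fold change -0.48, standard error 0.20), and Dnajb11, a co-chaperone, was lower in DXM against model (-0.40, standard error 0.18). The summed level of the list was 2238 CPM in DXM 1 to 4811 CPM in DXM 3, a narrower range than the 1799 CPM in Rhy 1 to 14456 CPM in DXM 3 of the members. Genes of the list with the highest mean CPM were Calr (mean 182 FPKM), Pdia3 (170 FPKM) and Hspa5 (92.7 FPKM), a calcium-binding chaperone, a disulfide isomerase and the Hsp70 of the reticulum.

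Cytokines of the type 2 and interleukin-22 axis, which induce goblet cell genes, were scarce. Il13 had 0 counts in all 12 libraries and Il5 had 1 count in DXM 1 alone, while Il4 had 7 to 20 counts per library. Il22 had 2, 3 and 0 counts in control 1, 2 and 3, 0 in each model library, 0, 13 and 2 in Rhy 1, 2 and 3, and 2, 31 and 35 in DXM 1, 2 and 3. Of 17 genes of the axis, 12 were tested and 0 had an adjusted p under 0.05 (edgeR's quasi-likelihood test), with medians of 0.03, -0.03 and 0.03. Il22 was higher at an unadjusted p under 0.05 in Rhy and in DXM than in model, where its 0 counts leave the fold without meaning. Il4ra, the shared receptor chain for interleukins of this axis, had 55.9, 55.6 and 51.8 CPM in model 1, 2 and 3 and 35.4, 32.8 and 33.6 CPM in Rhy 1, 2 and 3, without overlap, a log2 difference of -0.68 (SE 0.17; adjusted p = 1.00 by edgeR). Highest in mean CPM were Il13ra1 (mean 23.7 FPKM), Stat6 (17.3 FPKM) and Stat3 (13.7 FPKM).

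Notch signaling holds progenitors back from secretory fate. Of 15 of its genes, 14 were tested, 0 had an adjusted and 0 an unadjusted p under 0.05 in any comparison (edgeR's quasi-likelihood test), and the medians were 0.20, 0.02 and 0.20. Hes1, the target that represses Atoh1, had a mean of 39.5 FPKM, and Hes6 (32.4 FPKM) and Maml1 (3.98 FPKM) were the others of the 3 with the highest mean CPM.

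Paralogs bear on how far a member's reads are its own. The coding sequence of Ang4 was 84.8% to 88.0% identical to those of Ang, Ang2, Ang5 and Ang6, and shared an unbroken run of 79 bases with Ang5, so its low counts are uncertain where reads could be split. Ang2, Ang5 and Ang6 had 0 counts in all 12 libraries, and Ang had 54 to 310 counts. Retnlb was 56.8% to 72.9% identical to Retnla, Retnlg and Retn, and Clca1 56.1% to 62.5% to 6 other Clca genes, with shared runs of at most 26 and 20 bases. The mucins of other organs were nearly absent: Muc5ac had 2 counts in control 3 and 0 elsewhere. Of 23 paralogs, 22 were in the table and 13 were tested, and 0 had an adjusted p under 0.05 (edgeR's quasi-likelihood test). Ang itself was lower than in the model libraries at an unadjusted p under 0.05 in Rhy (log2 fold change -1.44, standard error 0.42) and DXM (-1.01, standard error 0.42), with 6.34, 8.36 and 3.06 CPM in Rhy 1, 2 and 3, 3.84, 10.4 and 9.57 CPM in DXM 1, 2 and 3 and 15.8, 13.955 and 18.5 CPM in model 1, 2 and 3. At the same threshold Rnase4 was lower in Rhy, Clca2 was higher in Rhy and DXM and lower in model against control, Clca4a was lower in model against control, Retnla was higher in DXM, and Agr3 was higher in Rhy and DXM. The paralogs with the highest mean CPM were Elf3, Clca4a and Ehf. Only Zg16 overlapped other annotated genes, Gm44939 and Gm22747 on the opposite strand, and these had 1 and 0 counts in all.

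The absorptive colonocyte list held 14 genes, all tested, with the highest mean CPM in Car1, Lypd8 and Muc3. Its median log2 fold change was -1.004 in model against control. At an unadjusted p under 0.05 by edgeR, 6 were lower (Slc26a3, Aqp8, Krt20, Ceacam20, Guca2a and Muc3) and 0 higher, against 4.51% and 5.11% of all genes. The summed level of the list was highest in control 2 (44971 CPM) and lowest in DXM 3 (10996 CPM), where the members summed to 1949 and 14456 CPM. The pan-epithelial list (12 of 12 tested; highest mean CPM in Krt8, Lgals4 and Krt19) had summed levels of 19095 CPM in DXM 2 to 32213 CPM in control 1 and medians of -0.34, 0.24 and -0.23 in model against control, Rhy against model and DXM against model. With libraries scaled to this list, the medians of the members were -0.29, -0.25 and 0.85. In edgeR's quasi-likelihood test 0 members then had an adjusted p under 0.05, where 0% of all genes did. Cldn3 and Vil1 were lower in model against control and Cdx2 in DXM against model at an unadjusted p under 0.05, and of the absorptive genes Slc26a3 was higher and Guca2b lower in DXM against model. In both lists 0 genes were at 0 counts, and 0 had an adjusted p under 0.05. The part of epithelial makeup in the levels of the members was not tested.

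The smooth muscle list held 10 genes, all tested, with the highest mean CPM in Myh11, Actg2 and Des. In DXM against model its median was 0.68, with 10 above 0, where 48.5% of all genes were. At an unadjusted p under 0.05 by edgeR, 6 genes of the list were higher (Acta2, Myh11, Lmod1, Synpo2, Smtn and Mylk), against 4.89% of all genes. Its summed level was 8360.4, 5693 and 9977 CPM in DXM 1, 2 and 3, against 5276, 5215 and 4125 CPM in model 1, 2 and 3. The leukocyte list held 10 genes, all tested, with the highest mean CPM in Jchain, Lyz2 and Ptprc. It summed to 542, 480.1 and 1265 CPM in DXM 1, 2 and 3, against 277, 293 and 551 CPM in model 1, 2 and 3. Its median log2 fold change in DXM against model was 0.87, with 8 above 0. Of its genes, Adgre1 and S100a8 were higher in DXM against model at an unadjusted p under 0.05, S100a8 was lower in model against control (log2 fold change -3.99), and Cd3e was lower in Rhy against model (-1.27). Actg2 of the smooth muscle list was higher in Rhy against model. Neither list had a gene at an adjusted p under 0.05 (edgeR's quasi-likelihood test) or a gene at 0 counts in all libraries, and their part in the levels of the members was not tested.

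Markers of secretory cells other than goblet cells were measured beside the members. Of the 10 Paneth and deep crypt secretory markers, 6 were tested, and the defensins Defa17 and Defa30 had 0 counts in all libraries but Rhy 3, with 2 counts each. Reg4, a marker of deep crypt secretory cells, had 15.4, 74.7 and 28.1 CPM in control 1, 2 and 3, 37.9, 35.7 and 26.0 CPM in model 1, 2 and 3, 2.83, 229.9 and 537 CPM in Rhy 1, 2 and 3, and 159, 237 and 375 CPM in DXM 1, 2 and 3. As for Spink4, the DXM libraries were above the model libraries and Rhy 1 was the lowest of all, but the control libraries of Reg4 overlapped the model libraries and those of Spink4 did not. The enteroendocrine list had medians of -0.42, 0.51 and 0.58 in model against control, Rhy against model and DXM against model, with 0 genes at an adjusted p under 0.05 (edgeR's quasi-likelihood test). Medians of the Paneth and deep crypt list were -0.48, 0.32 and 0.59 in the same order, beside -0.44, 0.06 and 0.74 for the members.

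Scg2 was higher at an unadjusted p under 0.05 in model against control and Insl5 in DXM against model in the enteroendocrine list (highest mean CPM in Pyy, Insl5 and Chgb). Pla2g2a, with Reg4 and Cd24a highest in mean CPM of the Paneth and deep crypt list, was lower in model against control and higher in Rhy and DXM against model, and Reg4 was higher in Rhy and in DXM against model (log2 fold change 2.95 in both), all at an unadjusted p under 0.05. For both genes Rhy 1 was nevertheless below every model library. Pla2g2a had 0.942, 251 and 103 CPM in Rhy 1, 2 and 3, and 3.03, 3.34 and 3.51 CPM in model 1, 2 and 3. Of the 10 genes of the proliferation and stem list, 9 were tested, with the highest mean CPM in Mki67, Pcna and Mcm6. Their median was 0.70 in model against control. There Pcna, Mcm6 and Cdk1 were higher at an unadjusted p under 0.05 by edgeR, as 5.11% of all genes were. For fat genes (6 of 7 tested; highest mean CPM in Fabp4, Cidec and Cfd) the summed level was 232 CPM in model 3 and 17.1 to 107 CPM elsewhere, and of 8 pancreatic acinar genes only Cela1 was tested, higher in model against control at an unadjusted p under 0.05. In all these lists 0 genes had an adjusted p under 0.05 (edgeR's quasi-likelihood test).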

How the data were processed

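Total RNA of colon was measured in 12 libraries, 3 per group. The deposited count values were made by the authors with HISAT2 2.0.5 against mm10 and featureCounts 1.5.0-p3. The deposited FPKM values were made by the authors from these counts, gene length and 1 factor per library: 100% of 209745 values with at least 5 counts fit this within 0.1%. The strand setting is not stated.

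Genes passing edgeR's filterByExpr (minimum count 10) were tested, 16904 of 54532. All 12 libraries entered 1 fit in R 4.3.3 with edgeR 4.0.16 (TMM, quasi-likelihood F test, Benjamini-Hochberg, 0.05). DESeq2 1.42.0 and limma 3.58.1, on log2 FPKM, were alternatives, beside other scalings, no filter, 2 groups alone, the replicate number as a block, Hoxb13 as a term, model 1 and model 2 summed, each library left out and, chosen after seeing the data, the 9 libraries with Hoxb13. Upstream sequences (RefSeq, GRCm38.p6) were read with Biopython 1.88, and loci were checked against GENCODE M21.

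Members were taken by gene name, and other genes named are those of fixed lists at an unadjusted p under 0.05, the 3 of a list with the highest mean CPM, and those most alike in pattern. Others, such as Tgm3, were singled out after their values were seen. The members and lists were chosen with earlier results of these data known. A further list of cell markers is not reported here.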

Additional observations from a re-analysis of the deposited data

How the results depend on the processing

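The count of members at an adjusted p under 0.05 was 0 in every comparison under every alternative (smallest adjusted p 0.157, by edgeR). The share of all genes at that threshold was 0% to 1.33%, the highest for any difference by DESeq2. Of 540 alternative log2 fold changes of members, 453 kept their direction and side of the threshold and 87 reversed sign, none of them past the threshold. Spink4 kept its direction in all 3 comparisons, and Tff3, Clca1, Fcgbp, Zg16 and Agr2 did so in DXM against model. The values that reversed follow, as log2 fold changes, and the cause was not tested.

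Scaled to the pan-epithelial list: in model against control, Zg16 0.36; in Rhy against model, Tff3 -0.0843, Fcgbp -0.28, Zg16 -0.30 and Ang4 -0.21; in DXM against model, Spdef 0.0201. With Hoxb13 as a term: in model against control, Muc2 0.0149 and Tff3 -0.00809; in Rhy against model, Tff3 -0.11, Fcgbp -0.32, Zg16 -0.49, Spdef 0.34 and Ang4 -0.27; in DXM against model, Muc2 0.25, Retnlb 0.28, Spdef 0.61 and Ang4 0.33. With model 1 and model 2 summed: in Rhy against model, Ang4 -0.19. With limma on log2(FPKM + 1): in model against control, Muc2 0.0543 and Zg16 0.44; in Rhy against model, Tff3 -0.33, Clca1 -0.20, Fcgbp -0.59, Zg16 -0.77, Spdef 0.29 and Ang4 -0.0994; in DXM against model, Spdef 0.13. With limma on log2(FPKM + 0.1): in model against control, Muc2 0.0583 and Zg16 0.44; in Rhy against model, Tff3 -0.33, Clca1 -0.22, Fcgbp -0.63, Zg16 -0.77, Spdef 0.33 and Ang4 -0.19; in DXM against model, Spdef 0.15.

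In the 9 libraries with Hoxb13, an alternative chosen after seeing the data: in model against control, Muc2 0.0443 and Tff3 -0.15; in Rhy against model, Muc2 0.25, Retnlb 0.0327, Spdef 1.15 and Ang4 -0.27; in DXM against model, Muc2 0.66, Retnlb 1.07, Spdef 1.02 and Ang4 0.47.

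Leaving out 1 library at a time gave these ranges: in model against control, Clca1 -1.13 to 0.35, Fcgbp -1.19 to 0.30, Zg16 -0.51 to 1.17, Agr2 -0.30 to 1.42, Tff3 -0.36 to 1.17, Muc2 -1.55 to 1.164, Retnlb -2.02 to 0.33, Spdef -1.98 to 0.78 and Ang4 -0.92 to 0.20; in Rhy against model, Zg16 -0.72 to 0.59, Ang4 -0.93 to 0.69, Muc2 -1.43 to 0.045, Retnlb -1.92 to 0.00227, Spdef -0.46 to 1.08, Tff3 -0.38 to 0.79, Clca1 -0.30 to 1.23, Fcgbp -0.84 to 0.59 and Agr2 -0.0932 to 0.92; in DXM against model, Muc2 -0.96 to 0.66, Retnlb -1.19 to 1.07, Spdef -0.51 to 1.02 and Ang4 -2.49 to 0.47.

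With the replicate number as a block (replicate block), 0 members and 0% of all genes had an adjusted p under 0.05 by edgeR, as without it. In Rhy against model, Fcgbp -0.0163, Zg16 -0.0511, Spdef 0.37 and Ang4 -0.13 reversed. In DXM against model, Muc2 0.0432 and Spdef 0.26 reversed. Spink4 in DXM against model then had a log2 fold change of 1.69 and an unadjusted p of 0.0673 (edgeR). Whether the numbers pair the libraries is not given in the sources used here. The deviations of the 18 same-number pairs correlated at -0.31 to 0.36, with 6 over 0.1. Those over 0.1 include every pair of control and model, at 0.210, 0.104 and 0.363 for numbers 1, 2 and 3.

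Scaling to the pan-epithelial list moved the median of all genes to 0.27, -0.33 and 0.05 in model against control, Rhy against model and DXM against model, from 0.01, -0.01 and -0.01. At an unadjusted p under 0.05 the genes higher and lower numbered 863 and 763 in model against control (666 and 980 with RLE factors, 1720 and 195 with pan-epithelial scaling), 294 and 334 in Rhy against model (96 and 1536 with pan-epithelial scaling), and 827 and 473 in DXM against model (1020 and 333 with upper-quartile scaling, 1031 and 154 with pan-epithelial scaling). The 3 libraries per group and the wide spread of the members limit what differences could pass the test.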
